A study of Homo sapiens with 6 samples.

Results

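The urokinase system and the inhibitors of matrix metalloproteases were described through 9 genes in PC-3 cells with and without a doxycycline-inducible transgene for tristetraprolin (TTP). The genes were PLAU, PLAUR, PLAT, SERPINE2, SERPINB2, MMP14, TIMP1, TIMP2 and TIMP3, matched by symbol among the 22933 gene symbols of the deposited table, in which each of them stood at 1 row. PC-3 is an established human prostate adenocarcinoma line derived from a bone metastasis. All cells carried the rtTA2 transactivator, which drives a transgene only when doxycycline (Dox) is present, and either the tdTom reporter alone (tdTom, 3 samples) or TTP with tdTom (TTP-tdTom, 3 samples). Both groups were sorted for tdTom and received 300 ng/ml Dox for 4 hours before RNA was collected, and the comparison was made to ask what TTP changes within that time. ZFP36, the gene that encodes TTP, had an FPKM of 5.56 with tdTom alone and 5.54 in the group labelled TTP-tdTom at its own locus (chromosome 19, 39897487 to 39900052 on GRCh37). The table therefore does not show the induction, and whether transgene reads were counted at that locus was not analysed here. In what follows, "with TTP" means the group so labelled. The table gives 1 FPKM value per group (a read density that takes account of transcript length and library size) and no value for a single sample. No spread between replicates can therefore be given, no test was run, and every difference given is a description of 1 pair of group values.

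Urokinase (PLAU) and tissue plasminogen activator (PLAT) are secreted serine proteases that cut plasminogen to plasmin, a protease that degrades fibrin and matrix proteins. The receptor uPAR (PLAUR) holds urokinase at the cell surface, and serpins such as SERPINB2 (PAI-2) and SERPINE2 (protease nexin-1) inhibit the activators by covalent trapping. MMP14 is a membrane-anchored collagenase, and the TIMP proteins are the tissue inhibitors of metalloproteases. Urokinase and its receptor are best known in carcinoma cells for their part in invasion. TTP binds AU-rich elements in the 3′UTR of mRNAs and brings in the enzymes that shorten the poly(A) tail. Its preferred site is the heptamer UAUUUAU, and the longer nonamer adds a U at either end.

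The 3′UTRs of the RefSeq transcripts named in each gene's row were read from GENCODE release 29 (GRCh38) and searched on the transcript strand for TATTTAT, the heptamer in DNA letters. The matches are shown here because they are the sequence to which TTP is known to bind, with the heptamer in capitals and 10 bases on either side. All lie in 3′UTRs, and positions are counted from the first base after the stop codon. The PLAU matches start at base 854 (chr10:73917409-73917435, plus strand) and base 874 (chr10:73917429-73917455, plus strand) of a 3′UTR of 932 bases. The PLAUR match starts at base 272 of 310 (chr19:43648602-43648628, minus strand), and the SERPINB2 match at base 278 of 585 (chr18:63903573-63903599, plus strand). TIMP3 had matches at base 1722 (chr22:32861089-32861115, plus strand) and base 3551 (chr22:32862918-32862944, plus strand) of 3666.
PLAU first: gtacactgaaTATTTATatttcactat
PLAU second: tcactattttTATTTATatttttgtaa
PLAUR: atattcatatTATTTATtttatactta
SERPINB2: tttactttgtTATTTATtattttatat
TIMP3 first: agcttatgggTATTTATcttctattag
TIMP3 second: tcctccatgtTATTTATgaattttata

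The PLAUR and SERPINB2 matches lie within the full nonamer TTATTTATT, whereas those of PLAU and TIMP3 do not. The PLAU pair lies close together near the end of the 3′UTR. Of the 3 PLAUR transcripts of the table, the one with a 3′UTR of 362 bases, held no copy. PLAT held 2 copies, at bases 431 and 660 of 760, whose sequence is not printed here. MMP14 (1722 bases), TIMP1 (98 bases), TIMP2 (2690 bases) and the SERPINE2 transcripts (185 to 755 bases) held none, although TIMP2 held 4 copies and the longer SERPINE2 transcripts 2 copies of the shorter core ATTTA, which is part of the heptamer. A match describes these letters only, and whether TTP bound any of these mRNAs was not tested.

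**Figure D1:**
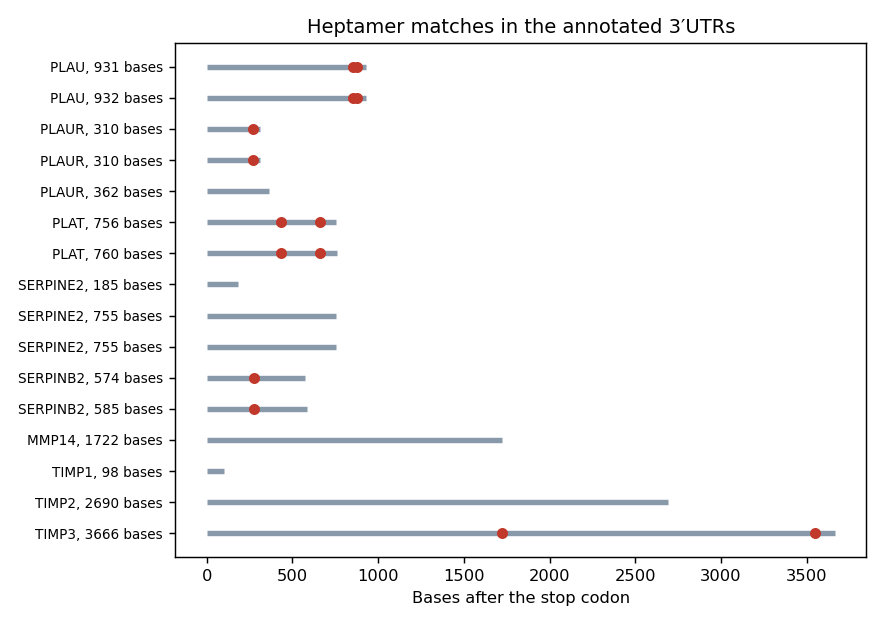
Position of each TATTTAT match (red point) along the annotated 3′UTR (line) of the RefSeq transcripts of the 9 genes, in bases after the stop codon, with each transcript named by its gene and 3′UTR length. The PLAU matches start at bases 854 and 874, and MMP14, TIMP1, TIMP2 and SERPINE2 have none.

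In the table itself, 8 of the 9 genes passed a filter of at least 1 FPKM in 1 group and above 0 in both, as did 13004 symbols in all. TIMP3 did not pass, and SERPINB2 passed only through its tdTom value. Of the 8, SERPINB2 and PLAU were at least 2-fold lower in the TTP-tdTom group, where 8.65% of all symbols that passed were. None was at least 2-fold higher, as 2.45% of all symbols were. At 1.5-fold, 3 of the 8 were lower (with PLAUR), as were 22.8% of all symbols. An FPKM below that of the tdTom group was found for 7 of the 8 and for 78.5% of all symbols, so that a lower value by itself was the common state among the symbols that passed. The median log2 ratio of TTP-tdTom over tdTom was -0.44 for the 8 genes and -0.23 for all symbols.

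Urokinase had the largest difference in FPKM. The PLAU row, on chromosome 10 of GRCh37 from 75661232 to 75711354, had an FPKM of 203.6 with tdTom alone and 93.3 with TTP, a log2 ratio of -1.13. The difference of 110.3 FPKM made up 62.2% of the net difference summed over the 9 genes. Relative to the median of all symbols its log2 ratio was -0.89, which is no longer 2-fold. Of the 668 symbols with a mean FPKM of at least 100 that passed the filter, 3.74% were at least 2-fold lower, and the 5th percentile of their log2 ratios was -0.86, above that of PLAU. The span of the PLAU row is shared by 3 rows of C10orf55, a gene that overlaps PLAU. Their FPKM was 1.23, 0.959 and 8.80 with tdTom alone and 1.35, 1.04 and 6.14 with TTP, each small beside PLAU.

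Tissue plasminogen activator hardly differed. PLAT lies on chromosome 8 from 42032236 to 42065194, and its FPKM was 225.6 with tdTom alone and 197.8 with TTP. Its log2 ratio of -0.19 was closer to 0 than the median of all symbols, and centred on that median it became 0.045, the opposite sign, as it also did after rescaling to the same upper quartile. In the tdTom group both activators stood at a like level, with 0.903 PLAU per PLAT, while in the TTP-tdTom group the ratio was 0.472. PLAU thus made up 47.4% of the FPKM of both activators with tdTom alone and 32.0% with TTP. Their sum was 429.2 and 291.1 FPKM. The ratio of PLAU to PLAT differed between the groups by -0.94 on the log2 scale.

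The receptor uPAR followed urokinase in direction. PLAUR, on chromosome 19 from 44149976 to 44174498, had an FPKM of 22.2 with tdTom alone and 13.3 with TTP. Its log2 ratio was -0.74, and 16.6% of symbols had a lower one. Relative to the median of all symbols it was -0.50, and after rescaling to the same upper quartile -0.34. The reported value of -0.74 lay inside the spread of genes of like level, as the 5th percentile of the 4801 symbols with a mean FPKM from 10 to 100 was -1.24. Urokinase transcripts outnumbered those of the receptor in both groups, with 9.19 PLAU per PLAUR with tdTom alone and 7.01 with TTP. The row joins 3 transcripts, and the table does not give the share of the transcript without the heptamer.

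**Figure D2:**
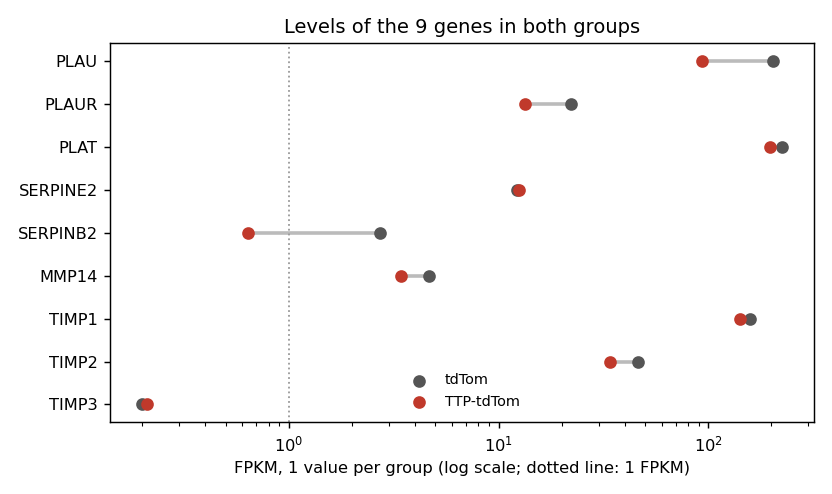
FPKM of the 9 genes (log scale) in the tdTom group (grey) and the TTP-tdTom group (red), 1 value per group, with a dotted line at 1 FPKM. PLAU and SERPINB2 have the longest connecting lines, and the points of PLAT, TIMP1 and SERPINE2 lie close together.

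The serpin inhibitors went apart. SERPINB2, which inhibits urokinase and is abundant in activated monocytes, lies on chromosome 18 from 61554939 to 61571124. Its FPKM was 2.71 with tdTom alone and 0.638 with TTP, so that 23.5% of the control level was left. The log2 ratio of -2.09 was the lowest of the 9, but as the gene passed the filter only where it is high, its place among all symbols is not given. The level of SERPINB2 was low, and its log2 ratio was -1.18 once 1 FPKM was added to both values. SERPINE2, which inhibits thrombin as well as both plasminogen activators, lies on chromosome 2 from 224839531 to 224904036. It had an FPKM of 12.2 with tdTom alone and 12.5 with TTP, a log2 ratio of 0.035, and 81.3% of symbols had a lower one. Relative to the median of all symbols the log2 ratio of SERPINE2 was 0.27, and after rescaling to the same upper quartile 0.43. SERPINB2 accordingly made up 18.2% of the FPKM of these 2 serpins with tdTom alone and 4.86% with TTP.

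SERPINB2 sits in a cluster of clade B serpins on chromosome 18, of which 10 genes were found in the table within 1000000 bases of it. Besides SERPINB2 itself, around which the cluster was taken, SERPINB5, SERPINB7 and SERPINB8 passed the filter, and these 3 were lower with TTP, as were 78.5% of all symbols. SERPINB8, at 61636046 to 61672097, had an FPKM of 20.6 with tdTom alone and 11.1 with TTP, with a log2 ratio of -0.89. SERPINB5 (maspin) had 12.02 and 7.32 (log2 ratio -0.72), and SERPINB7 had 20.8 and 15.3 (log2 ratio -0.44). The other 6 genes of the cluster did not exceed 0.604 FPKM in either group.

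The membrane protease and its soluble inhibitor kept their proportion. MMP14, on chromosome 14 from 23305627 to 23316803, had an FPKM of 4.65 with tdTom alone and 3.41 with TTP. TIMP2, which inhibits MMP14 and also bridges it to pro-MMP2, lies on chromosome 17 from 76848966 to 76921472 and had an FPKM of 46.0 with tdTom alone and 34.1 with TTP. Their log2 ratios were -0.45 and -0.43, and -0.21 and -0.19 relative to the median of all symbols. After rescaling to the same upper quartile they were -0.053 and -0.035. TIMP2 per MMP14 was 9.89 with tdTom alone and 10.0126 with TTP. Neither gene holds a heptamer match, and 30.4% and 31.8% of symbols had a lower log2 ratio.

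TIMP1, a secreted inhibitor of most metalloproteases, was the most abundant TIMP and differed little. Its row spans chromosome X from 47420290 to 47479256, and its FPKM was 157.5 with tdTom alone and 141.9 with TTP. The log2 ratio was -0.15, whereas it was 0.084 when centred on the median of all symbols. The sign also changed after rescaling to the same upper quartile. The same span holds a row of the kinase gene ARAF, with an FPKM of 78.6 with tdTom alone and 81.2 with TTP, and a row of SYN1, the gene in which TIMP1 is nested, with 0.122 and 0.168. TIMP3, which binds the matrix and also inhibits ADAM proteases, is nested in SYN3 on chromosome 22 (row from 32908540 to 33454377). It had an FPKM of 0.2001 with tdTom alone and 0.211 with TTP, and its 2 heptamer matches can therefore not be set against a ratio. The 3 TIMP genes summed to 203.7 FPKM with tdTom alone and 176.2 with TTP, of which TIMP1 made up 77.3% and 80.5%.

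**Figure D3:**
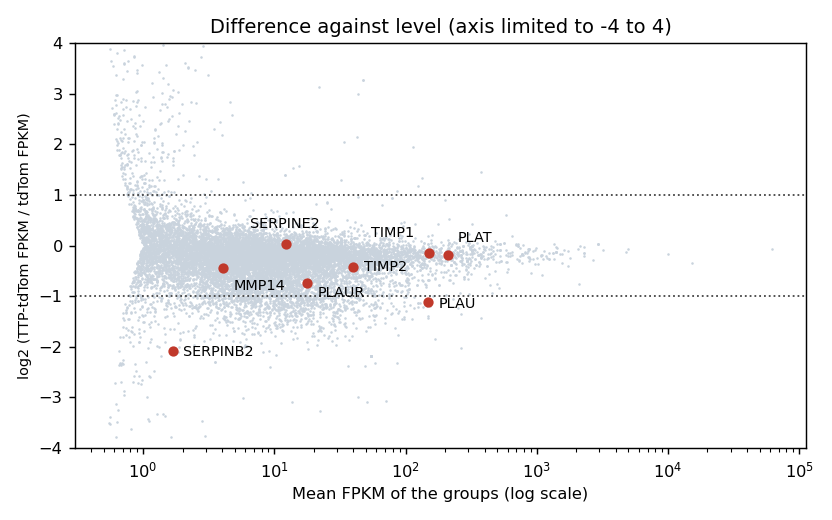
Log2 ratio of TTP-tdTom over tdTom FPKM against the mean FPKM of the groups (log scale) for the symbols that passed the filter (grey, those beyond the axis left off) and the 8 members that passed (red), with dotted lines at a 2-fold difference. The scatter is widest at low FPKM, where SERPINB2 lies, and PLAU lies below most symbols of its level.

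In order of level in the tdTom group, PLAT (225.6 FPKM) stood above PLAU (203.6), TIMP1 (157.5), TIMP2 (46.0), PLAUR (22.2), SERPINE2 (12.2), MMP14 (4.65), SERPINB2 (2.71) and TIMP3 (0.2001). In the TTP-tdTom group TIMP1 (141.9) stood above PLAU (93.3), and the other genes kept their places. Whether neighbours in this order differ beyond the spread between samples cannot be told from 1 value per group. PLAU, PLAT and TIMP1 together made up 87.0% of the FPKM of the 9 genes with tdTom alone and 87.1% with TTP, while PLAU alone went from 30.2% to 18.8%.

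Set against the heptamer matches, the 4 measured genes with at least 1 copy had log2 ratios of -2.09 (SERPINB2), -1.13 (PLAU), -0.74 (PLAUR) and -0.19 (PLAT). The 4 without a copy had -0.45 (MMP14), -0.43 (TIMP2), -0.15 (TIMP1) and 0.035 (SERPINE2). The ranges overlap through PLAT, and SERPINB2, which gives the lowest value, passed the filter only through its tdTom value. In the whole table, a RefSeq transcript with a 3′UTR was matched for 11672 of the 13004 symbols, of which 35.9% held the heptamer and 9.78% the nonamer. The median log2 ratio was -0.44 for symbols with the heptamer and -0.17 for those without, and 15.7% and 4.56% of them were at least 2-fold lower. Symbols with the nonamer had a median of -0.44 as well, and 17.1% of them were at least 2-fold lower. The symbols with and without the heptamer were not matched for 3′UTR length, and the part of length in the difference was not tested. The share of symbols that held the heptamer differed with the length of the 3′UTR. Among symbols with a 3′UTR of like length (0.8 times as long, or the reverse, at most), 12.2% held it for PLAUR (310 bases), 20.1% for SERPINB2 (585 bases), 22.01% for PLAT (760 bases), 24.8% for PLAU (932 bases) and 63.3% for TIMP3. For the genes without a copy it was 5.34% for TIMP1, 22.01% for the longer SERPINE2 transcripts, 40.3% for MMP14 and 54.5% for TIMP2.

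**Figure D4:**
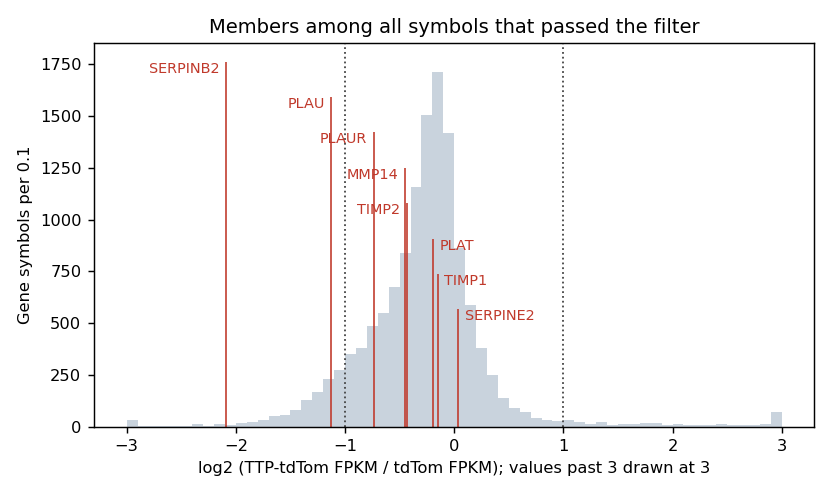
Number of gene symbols by log2 ratio of TTP-tdTom over tdTom FPKM, in steps of 0.1, with the 8 members that passed the filter as red lines, whose heights only separate the labels, and dotted lines at a 2-fold difference. SERPINB2 and PLAU lie past the 2-fold line, PLAT, TIMP1 and SERPINE2 near the peak.

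The partners of the system were described from lists of symbols. Of 8 genes for plasminogen and its binding at the cell surface found in the table, 7 passed the filter. Their median log2 ratio was -0.17, and 0 were at least 2-fold lower (8.65% of all symbols) or higher (2.45%). ANXA2, a surface binding protein for plasminogen and PLAT, had an FPKM of 258.7 with tdTom alone and 249.9 with TTP. The most abundant of them, VIM, had 1159 and 898.9, ACTB had 406.2 and 345.9, and HMGB1 had 264.5 and 221.9. Plasminogen itself, named here after its value was seen, was listed at 0.315 FPKM in both groups.

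Of 19 genes for partners and clearance receptors of uPAR, 14 passed, with a median log2 ratio of -0.22. Among these, 0 were at least 2-fold lower (8.65% of all symbols) or higher (2.45%). ITGB1, the β1 integrin chain that associates with uPAR, came closest, with an FPKM of 269.02 with tdTom alone and 137.4 with TTP (log2 ratio -0.97). ITGA3 had 57.7 and 51.7, ITGA6 28.98 and 20.4, and EGFR 21.4 and 17.8. Among 22 other serpins, 11 passed, 2 were at least 2-fold lower (8.65% of all symbols) and 0 higher (2.45%). These were SERPINI1 (neuroserpin, an inhibitor of PLAT), with an FPKM of 4.31 and 1.99 in the tdTom and TTP-tdTom groups, and SERPINI2, with 1.32 and 0.393. Relative to the median of all symbols their log2 ratios were -0.88 and -1.51, so that SERPINI1 was no longer 2-fold lower, and SERPINI2, like SERPINB2, passed the filter only through its tdTom value. The median of the 11 was -0.15. SERPINB6, the most abundant, had 31.9 and 31.5, and SERPINH1, a collagen chaperone rather than an inhibitor, had 13.8 and 12.4.

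Of 22 other matrix metalloproteases, 7 passed, with a median log2 ratio of -0.096. Among these, 0 were at least 2-fold lower (8.65% of all symbols) or higher (2.45%). MMP24 had an FPKM of 15.0 and 14.2 in the tdTom and TTP-tdTom groups, MMP16 had 5.55 and 5.20, MMP25 had 3.30 and 2.69, and MMP9 had 1.56 and 1.10. Among 18 further inhibitors and regulators of metalloproteases, 11 passed, with a median of -0.31, and 1 was at least 2-fold lower (8.65% of all symbols). This was TFPI2, a secreted Kunitz inhibitor of plasmin, with an FPKM of 79.9 with tdTom alone and 36.6 with TTP (log2 ratio -1.13), which relative to the median of all symbols was -0.89 and no longer 2-fold. PZP, an inhibitor of many proteases that did not pass the filter and was named after its value was seen, was listed at 0 with tdTom alone and had 5.92 FPKM with TTP. CD44, which anchors MMP14 at the cell front, had 266.7 and 165.9, CD63 had 223.8 and 228.9, and BSG (EMMPRIN) had 60.7 and 48.8.

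**Figure D5:**
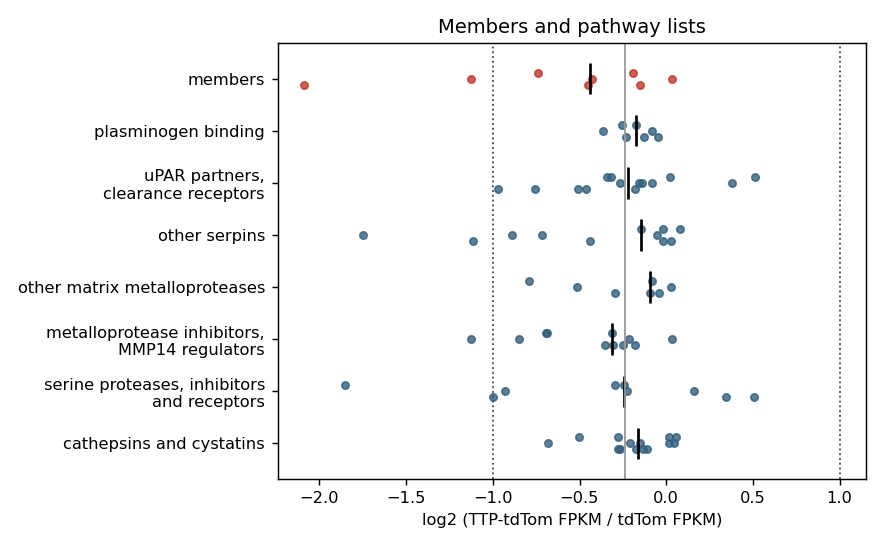
Log2 ratio of TTP-tdTom over tdTom FPKM for the 8 members that passed the filter (red) and the genes of 7 pathway lists that passed (blue), 1 point per gene, with a black bar at each median, a grey line at the median of all symbols and dotted lines at a 2-fold difference. The median of the members is the lowest, and most genes of the lists lie between the dotted lines. Members and lists were chosen with earlier results of these data known, so their order is a description only.

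Of the epithelial markers KRT18, KRT19, KRT8 and EPCAM were between 15.1 and 98.2 FPKM in both groups, whereas CDH1 was at 0.119 and 0.390. Markers of prostate luminal cells did not exceed 1.80 FPKM. Of 6 leukocyte markers, which matter for the monocyte gene SERPINB2, PTPRC, CD14 and ITGAM did not exceed 0.566 FPKM. LYZ was at 4.79 and 4.96, CSF1R at 0.777 and 1.004, and CD68, a lysosomal protein, at 323.2 and 262.1. The CD68 row spans chromosome 17 from 7452375 to 7486098, and whether other genes share that span was not tested. Of the 9 endothelial and fibroblast markers, KDR (7.69 and 4.38) and COL1A1 (4.34 and 4.56) passed the filter. COL1A2, which did not pass and was named after its value was seen, was listed at 0 with tdTom alone and had 1.38 FPKM with TTP. The part of other cells or of nearby loci in the differences was not tested. No locus without a gene symbol overlapped any of the 9 genes. Within 10000 bases of them lay 54 such loci, of which 9 were at 0 with tdTom alone and 3 were at 0 with TTP. Of the 42 above 0 in both groups, 14 were lower and 28 higher with TTP. The shares among all loci without a symbol were not counted, so nothing particular to these neighbourhoods can be read from these numbers.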

How the data were processed

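RNA-Seq was performed on 6 samples, 3 per group. The authors aligned strand-specific paired-end reads with TopHat2 (2.0.13) to Hs37D5, which is GRCh37 with decoy sequence, and compared groups with Cufflinks (2.2.1), versions as in the submitters' processing notes. The deposited FPKM values are 1 per group and locus, made by the authors by scaling fragments to transcript length and mapped fragments. The table also holds the authors' own fold changes, test statistics, p-values and q-values, which were not used. Samples were grouped by their titles. Each of the 9 genes had 1 row; for other symbols the row with the most RefSeq names, then the highest summed FPKM, was taken. Log2 ratios were computed as TTP-tdTom over tdTom with no pseudocount, and a difference was counted at 2-fold among symbols with at least 1 FPKM in 1 group and above 0 in both. As the values are per group, no test could be computed from them here, and the tests foreseen for values per sample were not run. The protocol in the labels aimed at 40000000 to 50000000 read pairs per sample. The depth reached is unknown, since the FPKM values give neither fragment counts nor a counting interval. At 452 unnamed loci of 400 bases they were 452 different numbers, with no step of single fragments. As each value joins 3 samples, the lack of a step cannot tell the depth. Starts are counted from 1 on GRCh37, while positions of 3′UTR matches are on GRCh38. RefSeq names were matched to GENCODE release 29 transcripts. The members and lists were chosen with earlier results of these data known. From each list the 4 symbols with the highest mean FPKM were named, and those past 2-fold where there were 5 or fewer. PLG, PZP, COL1A2, SERPINB5, MMP13, SPOCK3, CST1, CST4, genes that overlap a member and markers near 0 were named after their values were seen. Alternatives were pseudocounts of 0.1 and 1, a 1.5-fold limit, other filters, other rows and 3 rescalings. The functions were tested on simulated data. Python 3.11.15, numpy 2.4.6, pandas 2.3.3 and matplotlib 3.10.9 were used.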

Additional observations from a re-analysis of the deposited data

How the results depend on the processing

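No paired analysis was possible because the table holds 1 value per group, and for the same reason no replicate could be left out. Of the 8 members that passed, 2 were at least 2-fold lower as reported, beside 8.65% of all symbols. The number was 1 of 8 (4.24% of all symbols) when ratios were centred on the median, which moves every log2 ratio up by 0.23, 1 of 8 (2.61%) when both groups were rescaled to the same upper quartile, and 1 of 7 (7.92%), PLAU, with at least 1 FPKM required in both groups, which removes SERPINB2. Centring and the upper quartile left SERPINB2 and not PLAU, whereas rescaling to equal FPKM sums over named loci kept 2 of 8 (7.4%), with PLAU at -1.07. The median log2 ratio of the members, -0.44, was -0.20 after centring and -0.044 after rescaling to the upper quartile. Under both of these PLAT and TIMP1 changed sign, and under the other alternatives no member did. At 1.5-fold, where 22.8% of all symbols were lower, 3 of the 8 members that passed were lower. So were 2 of 14 uPAR partners, 4 of 11 other serpins, 1 of 7 other matrix metalloproteases and 4 of 11 metalloprotease inhibitors and regulators. The count was 3 of 9 for serine proteases with their inhibitors and receptors, 1 of 14 for cathepsins and cystatins, and 0 of 7 for plasminogen binding. Among those counted as lower, SERPINB2, SERPINI2, MMP13 and SPOCK3 passed the filter only through their tdTom values. MMP13 had an FPKM of 1.57 with tdTom alone and 0.909 with TTP, and SPOCK3 had 1.04 and 0.575. Centring left 1 serpin (SERPINI2) and 0 metalloprotease inhibitors (TFPI2 at -0.89), and requiring 1 FPKM in both groups left 1 serpin (SERPINI1).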

Other observations

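Clotting and trypsin-like proteases, together with their inhibitors and receptors, were a further list. Of its 23 genes 9 passed the filter, with a median log2 ratio of -0.24, and 1 was at least 2-fold lower, beside 8.65% of all symbols. This was F2RL1 (PAR2, the receptor cleaved by trypsin-like proteases), with an FPKM of 9.49 with tdTom alone and 2.63 with TTP (log2 ratio -1.85). TFPI, the inhibitor of the tissue factor pathway, was just short of that at 38.2 and 19.1 (log2 ratio -0.998). PI3 (elafin) had 25.7 and 32.6, HTRA1 had 19.6 and 16.6, and SPINT2 had 13.3 and 10.9.

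The lysosomal cathepsins and their cystatin inhibitors, another route of matrix breakdown, had 18 genes in the table, of which 14 passed. Their median log2 ratio was -0.16, and 0 were at least 2-fold lower (8.65% of all symbols) or higher (2.45%). CST1 and CST4 share a row, with 87.0 FPKM with tdTom alone and 87.9 with TTP, and its ratio entered that median for each of them. CST3 (cystatin C) had an FPKM of 201.4 with tdTom alone and 166.4 with TTP. CTSC had 180.04 and 127.03, CTSD had 152.5 and 139.04, and CSTB had 119.1 and 107.2.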
